A study of Mus musculus with 8 samples.

Results

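The 9 genes described here mark the most ventral cells of the embryonic spinal cord, the floor plate and the p3 progenitors beside it with the V3 interneurons that p3 cells form. They are Shh, Foxa2, Ferd3l, Sulf1, Slit1, Ntn1, Spon1, Nkx2-9 and Sim1. Probes were taken whose RefSeq accession maps to one of these symbols, which gave 12 probes for 9 genes, out of 55681 probes and 19893 genes with a symbol on the array. RNA came from motor neuron cultures made from male mouse embryonic stem cells of an Hb9GFP line, in which green fluorescent protein reports motor neurons, and was measured on 1-colour Agilent SurePrint G3 arrays. The day 9 groups were Litchi knockout and control cells, and so were the day 7 groups, which makes 4 groups with 2 arrays each. In all of them retinoic acid and Shh were added between day 2 and day 5, the embryoid bodies were dissociated on day 5, and GDNF was present from then to sampling. The labels name no sort and do not say whether the knockout is 1 clone or whether the arrays of a group came from separate cultures. The p-values therefore measure the spread between these arrays, which may be technical.

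The floor plate is a strip of glial-like cells at the ventral midline of the neural tube. It secretes Sonic hedgehog, the morphogen that patterns the ventral cord by concentration, together with guidance proteins that attract or repel the axons crossing the midline. Cells next to it, the p3 domain, read a high Hedgehog signal, express Nkx2-2 and Nkx2-9 and give rise to V3 interneurons, which carry the transcription factor Sim1. The protocol here adds a Hedgehog signal to make motor neurons, whose progenitors lie just dorsal to p3.

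The arrays differed in brightness, with 75th percentiles of the processed signal from 649 to 1691 intensity units, and every level below is a log2 signal relative to that percentile of its own array. The brighter 4 were the replicate 1 arrays of each group, and 55.9% to 67.9% of spots stood well above background. Of the 12 member probes, 11 were well above background on all 8 arrays, and the probe of Sim1 on 1. The filter required both arrays of at least 1 group, so 8 of the 9 genes were tested among 24633. The gene table places Sulf1 on chromosome 1, Foxa2 on 2, Shh on 5, Spon1 on 7, Sim1 on 10, Ntn1 on 11, Ferd3l and Nkx2-9 on 12 and Slit1 on 19. The gene table holds 0 entries named Litchi, so no probe of the knocked-out gene could be looked up to check the labels. Bulk RNA cannot tell fewer cells of a type apart from less RNA per cell.

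Promoter windows of 250 bases before to 50 after an annotated start were found for 4 of the 9 genes, in RefSeq sequence of the build GRCm38.p6. Those of 3 transcription factor genes are shown because they carry the patterns reported below, Foxa2 and Ferd3l with the levels that were higher on day 9 and Nkx2-9 with the one that was lower. They are printed on the gene's strand, and capitals mark matches to the E-box CANNTG or to TATAAA on either strand.
Foxa2, chr2:148045415-148045714, minus strand: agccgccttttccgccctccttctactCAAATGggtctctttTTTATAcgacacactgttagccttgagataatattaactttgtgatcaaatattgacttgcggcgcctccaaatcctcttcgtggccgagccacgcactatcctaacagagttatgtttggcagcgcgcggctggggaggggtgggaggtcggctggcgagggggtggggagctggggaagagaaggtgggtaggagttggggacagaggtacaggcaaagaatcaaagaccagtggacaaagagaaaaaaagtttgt
Ferd3l, chr12:33928175-33928474, plus strand: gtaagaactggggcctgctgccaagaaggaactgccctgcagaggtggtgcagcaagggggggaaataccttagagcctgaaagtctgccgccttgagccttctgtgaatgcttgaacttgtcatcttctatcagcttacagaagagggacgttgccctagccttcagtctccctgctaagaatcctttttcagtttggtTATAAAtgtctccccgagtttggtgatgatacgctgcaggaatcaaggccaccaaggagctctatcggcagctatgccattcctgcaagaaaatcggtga
Nkx2-9, chr12:56613235-56613534, minus strand: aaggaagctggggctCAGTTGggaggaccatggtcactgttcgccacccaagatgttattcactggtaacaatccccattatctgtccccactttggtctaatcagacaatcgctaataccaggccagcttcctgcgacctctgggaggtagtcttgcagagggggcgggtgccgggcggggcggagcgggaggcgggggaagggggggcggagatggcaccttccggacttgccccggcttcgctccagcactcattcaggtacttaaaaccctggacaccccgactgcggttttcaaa
The Foxa2 window, the one of its 3 windows with a match, held an E-box at -223 and TATAAA on the opposite strand at -208 from the start. Ferd3l, a basic helix-loop-helix factor, had TATAAA at -50 and no E-box. Nkx2-9 had an E-box at -235. No match overlapped another. TGTTTAC, GGGTGGTC and TAAGTG, searched on both strands for the FOX, GLI and NKX2 factors, had 0 matches in all 6 windows of the 4 genes. Among 32851 promoter windows of the same length, 72.3% held CANNTG, 13.6% TATAAA, 9.2% TAAGTG, 3.65% TGTTTAC and 0.807% GGGTGGTC.

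**Figure D1:**
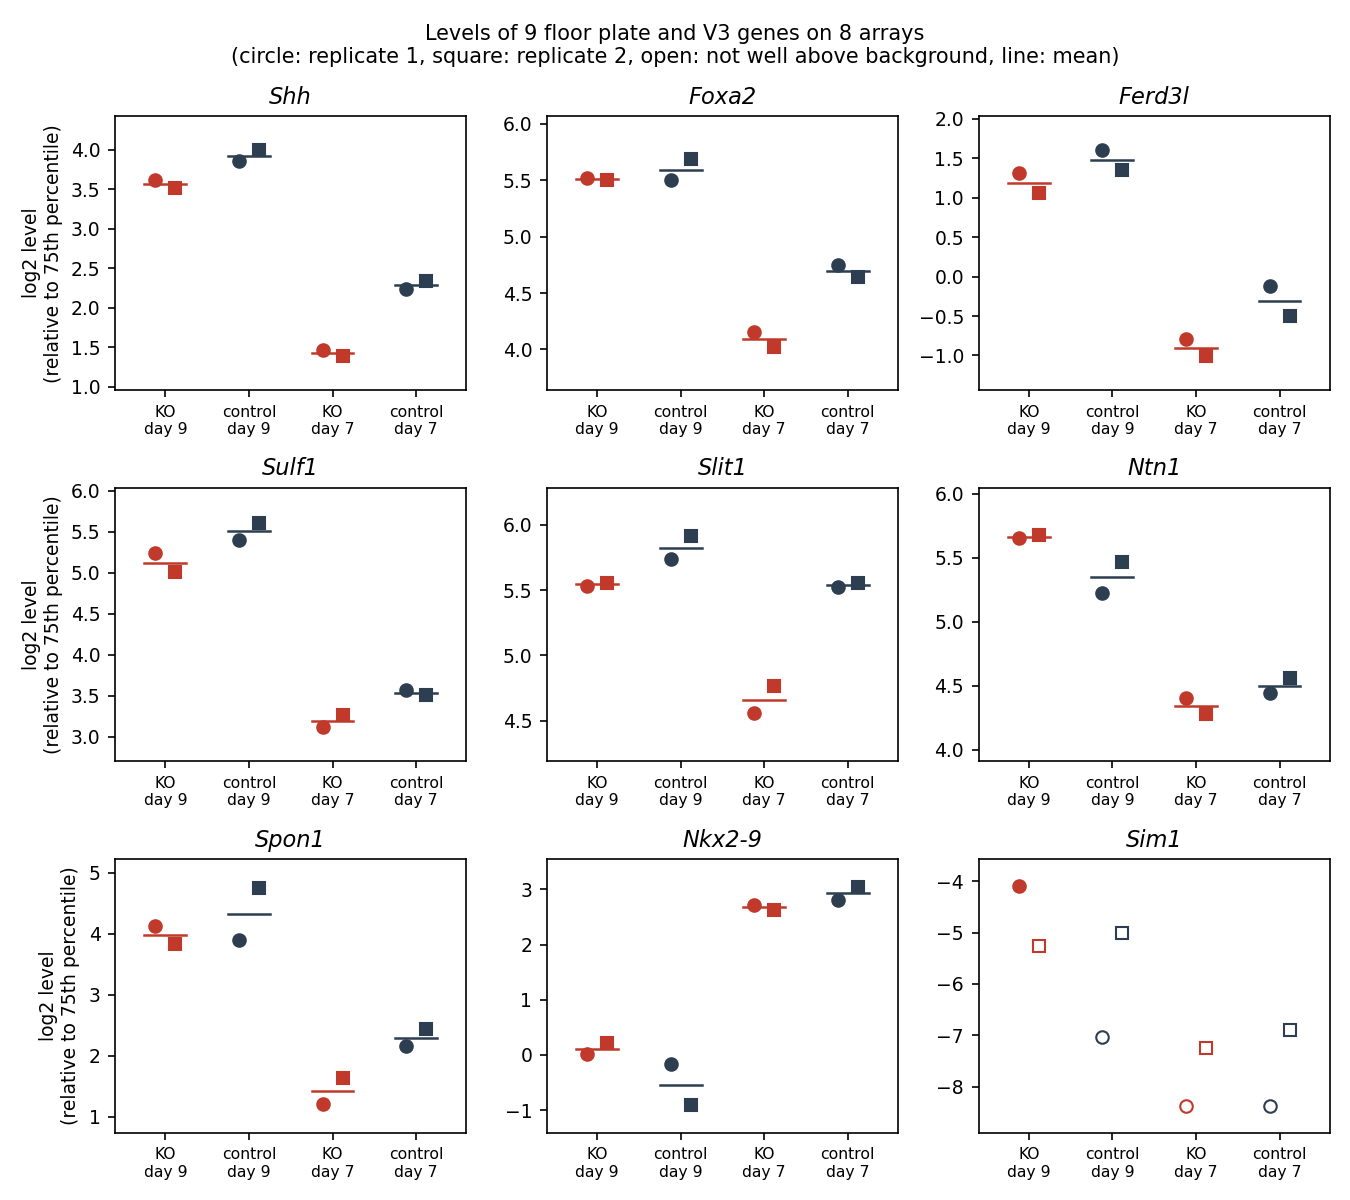
Log2 levels of the 9 genes, relative to the 75th percentile of each array, on the 8 arrays by group. Filled symbols are well above background, and lines are means of 2 arrays. Of the 8 tested genes, 7 have both day 9 groups above the day 7 arrays of their genotype, Nkx2-9 has them below, and Sim1 is filled on 1 array.

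Levels on day 9 were compared with those on day 7 within each genotype. Floor plate genes were higher on day 9 and the p3 gene Nkx2-9 was lower. In knockout cells all 8 tested genes changed, 7 rising and 1 falling, where 4.14% of all 24633 genes tested rose, 4.17% fell and 8.31% changed in either direction. In control cells 7 of the 8 changed, 6 rising and 1 falling, where 4.11% of all genes rose, 3.26% fell and 7.36% changed in either direction. The median change over the 8 genes was 1.67 in knockout cells and 1.27 in control cells, beside medians over all genes of -0.12 in both. These genes and the lists further below were chosen with earlier results of these data known. The shares of all genes are therefore a description beside them and not a test. A change was called at an adjusted p under 0.05 in limma's moderated test with Benjamini-Hochberg adjustment over all genes tested, with n = 2 arrays a group throughout.

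Shh, the secreted morphogen, lay at log2 levels of 3.62 and 3.51 in knockout cells on day 9, 3.85 and 3.99 in control cells on day 9, 1.47 and 1.39 in knockout cells on day 7 and 2.23 and 2.34 in control cells on day 7. No group overlapped another, and the day 9 arrays were the higher ones in both genotypes. Its probe is printed on 10 spots of each array, and the SD of those spots was 0.0284 to 0.0633, which is the technical spread within an array. Shh rose by 2.14 ± 0.13 on the log2 scale (SE) in knockout cells, or 4.39-fold (adjusted p = 0.00397), and by 1.64 ± 0.13 in control cells, or 3.11-fold (0.00652). The control call ended without control day 7 replicate 2, at 1.69 and an adjusted p of 0.0608.

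Foxa2, the forkhead factor that specifies the floor plate, lay at 5.52 and 5.50 in knockout cells on day 9, 5.50 and 5.69 in control cells on day 9, 4.15 and 4.02 in knockout cells on day 7 and 4.75 and 4.65 in control cells on day 7. The genotypes overlapped on day 9, and each stood above its own day 7 arrays. Foxa2 rose by 1.42 ± 0.13 in knockout cells (adjusted p = 0.00570) and by 0.90 ± 0.13 in control cells (0.0192). Its other probe gave 1.56 in knockout cells and 0.90 in control cells. The control call ended without control day 7 replicate 1 (0.95, adjusted p = 0.0565), control day 7 replicate 2 (0.85, 0.113) or control day 9 replicate 2 (0.81, 0.110). It also ended with normexp background correction (0.89, 0.0888).

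Ferd3l, also called Nato3, is a helix-loop-helix factor of the floor plate. Its levels were 1.31 and 1.06 in knockout cells on day 9, 1.60 and 1.36 in control cells on day 9, -0.79 and -1.01 in knockout cells on day 7 and -0.12 and -0.50 in control cells on day 7. The groups did not overlap and kept the order seen for Shh. Ferd3l rose by 2.09 ± 0.19 in knockout cells (adjusted p = 0.00535) and by 1.79 ± 0.19 in control cells (0.00895). Without control day 7 replicate 2 the control change was 1.60, with an adjusted p of 0.0620.

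Sulf1 encodes a secreted enzyme that trims sulfate groups from heparan sulfate and so tunes how Hedgehog and other ligands bind the cell surface. It lay at 5.24 and 5.01 in knockout cells on day 9, 5.40 and 5.61 in control cells on day 9, 3.13 and 3.27 in knockout cells on day 7 and 3.57 and 3.51 in control cells on day 7. At this probe no groups overlapped. Sulf1 rose by 1.92 ± 0.15 in knockout cells (adjusted p = 0.00482) and by 1.97 ± 0.15 in control cells (0.00629). The control call ended without control day 7 replicate 2, at 1.94 and an adjusted p of 0.0608. The other Sulf1 probe lay at 1.94 and 1.77 in knockout cells on day 9, 1.90 and 2.53 in control cells on day 9, -0.39 and 0.29 in knockout cells on day 7 and -0.14 and 0.34 in control cells on day 7. There the genotypes overlapped on both days, and the changes over time were 1.91 in knockout cells and 2.11 in control cells.

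The 3 secreted guidance and matrix genes differed more among themselves. Spon1, which encodes the floor plate adhesion protein F-spondin, lay at 4.13 and 3.84 in knockout cells on day 9, 3.90 and 4.75 in control cells on day 9, 1.21 and 1.64 in knockout cells on day 7 and 2.15 and 2.44 in control cells on day 7. Its pair of control day 9 arrays stood 0.85 apart, the widest replicate gap of any tested member, against a median gap of 0.22 over all genes in that group. Spon1 rose by 2.56 ± 0.31 in knockout cells (adjusted p = 0.00796) and by 2.03 ± 0.31 in control cells (0.0195). The knockout call ended without knockout day 9 replicate 1 (2.41, adjusted p = 0.0554). The control call ended without control day 7 replicate 1 (1.89, 0.0709), control day 7 replicate 2 (2.18, 0.0949) or control day 9 replicate 2 (1.61, 0.0711).

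Ntn1 encodes netrin-1, an attractant for commissural axons. It lay at 5.65 and 5.68 in knockout cells on day 9, 5.23 and 5.47 in control cells on day 9, 4.41 and 4.28 in knockout cells on day 7 and 4.44 and 4.56 in control cells on day 7. Knockout cells on day 9 held the highest levels and knockout cells on day 7 the lowest, with no overlap between groups at this probe. Ntn1 rose by 1.32 ± 0.14 in knockout cells (adjusted p = 0.00701) and by 0.85 ± 0.14 in control cells (0.0248). Its other probe gave 1.58 in knockout cells and 1.34 in control cells, and there the genotypes overlapped on both days. The control call ended without control day 7 replicate 1 (0.79, adjusted p = 0.0883), control day 7 replicate 2 (0.91, 0.112), control day 9 replicate 2 (0.73, 0.133) or either knockout day 9 array (0.85, 0.0555).

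Slit1 encodes a ligand of the Robo receptors that repels axons from the midline. It lay at 5.53 and 5.55 in knockout cells on day 9, 5.74 and 5.92 in control cells on day 9, 4.56 and 4.76 in knockout cells on day 7 and 5.52 and 5.55 in control cells on day 7. Knockout cells on day 9 overlapped control cells on day 7. Slit1 rose by 0.88 ± 0.14 in knockout cells (adjusted p = 0.0162), and in control cells its change was 0.29 ± 0.14 (0.246). The knockout call ended when any 1 of the 4 knockout arrays was left out, with changes of 0.78 to 0.99 and adjusted p from 0.0599 to 0.0905, and it ended without a filter on dim probes (0.0720).

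Nkx2-9, a homeobox factor of p3 progenitors, ran the other way. Its levels were 0.02 and 0.21 in knockout cells on day 9, -0.17 and -0.91 in control cells on day 9, 2.72 and 2.63 in knockout cells on day 7 and 2.81 and 3.05 in control cells on day 7. All day 9 arrays were below all day 7 arrays, and the control day 9 arrays were the lowest. Nkx2-9 fell by 2.56 ± 0.25 in knockout cells, 5.90-fold lower on day 9 (adjusted p = 0.00606), and it fell by 3.47 ± 0.25 in control cells, 11.1-fold lower (0.00629). Without control day 7 replicate 2 the control change was -3.35, with an adjusted p of 0.0608.

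**Figure D2:**
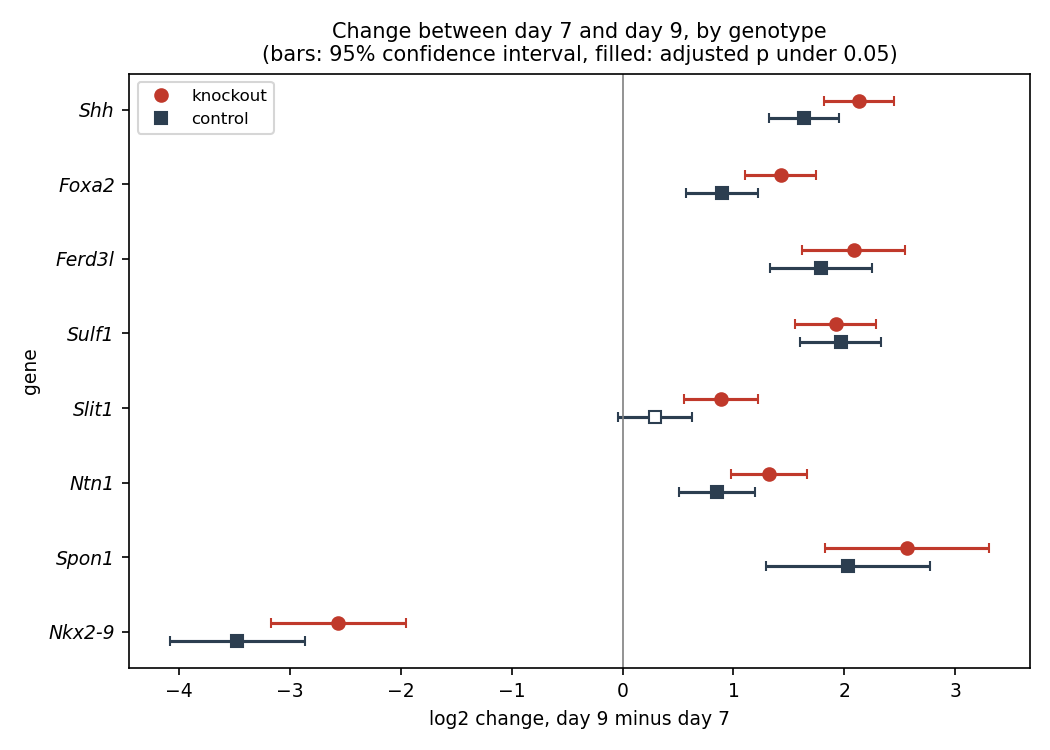
Log2 change on day 9 against day 7 for the 8 tested genes, in knockout and control cells, with 95% confidence intervals. Filled symbols passed an adjusted p of 0.05. All 8 are filled in knockout cells and 7 in control cells, where Slit1 at 0.29 is open.

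The median control change of the 8 genes was 1.25 without control day 7 replicate 2, beside 1.27 with all arrays. It was 1.26 without control day 7 replicate 1 and 1.19 without control day 9 replicate 2. Members lost control calls in these fits, which leave 1 array in a group, and so did genes over the whole array. When only the control arrays entered the test, 3 of 8 members were called, with 182 calls over all genes against 1814. With no filter on dim probes 3 of 9 were called, since Sim1 then entered, with 75 calls over all genes. Both settings ended the calls of Foxa2, Ferd3l, Ntn1 and Spon1. All 8 changes kept their sign under these settings.

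Sim1, the factor of V3 interneurons, was not tested in the main fit. Its probe had processed signals of 84.3 and 22.3 intensity units in knockout cells on day 9, 8.37 and 22.0 in control cells on day 9, 5.07 and 4.40 in knockout cells on day 7 and 4.93 and 5.48 in control cells on day 7. Unlike the levels of the other genes, these signals are not scaled for the brightness of the arrays. Only knockout day 9 replicate 1 was well above background. The other 7 arrays bound the level of Sim1 without measuring it, and no fold is given.

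Knockout cells were next compared with control cells on day 9. limma called 0 of the 8 genes, where 5.46% of all genes were called in either direction. At an unadjusted p under 0.05 there were 2 lower, Shh and Sulf1, and 1 higher, Nkx2-9, beside 15.3% of all genes lower and 10.4% higher. The arrays of the genotypes did not overlap in 4 genes that lay lower (Shh, Ferd3l, Sulf1 and Slit1) and 2 that lay higher (Ntn1 and Nkx2-9), where 32.5% of all genes were lower and 27.1% higher in this way. At the other probes of Sulf1 and Ntn1 they overlapped. Differences from control cells were -0.36 ± 0.13 (SE) for Shh (adjusted p = 0.155), -0.38 ± 0.15 for Sulf1 (0.178) and 0.66 ± 0.25 for Nkx2-9 (0.170). Those of Spon1, Ferd3l, Slit1 and Foxa2 were -0.34, -0.29, -0.28 and -0.08. The difference of Foxa2 turned to 0.18 with normexp background correction and to 0.13 with median scaling. Without control day 9 replicate 2 it was 0.01 for Foxa2 and 0.08 for Spon1. Median scaling moved the median difference of the 8 genes from -0.29 to -0.08, and that of all genes from -0.02 to 0.19. With quantile normalization the median of the 8 genes was -0.32.

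Ntn1 lies on chromosome 11, where the 1250 tested genes with a symbol had a median difference of 0.38 between knockout and control cells on day 9, beside 0.04 for the 13782 genes of other chromosomes. Of the chromosome 11 genes 9.2% were called higher, against 1.36% elsewhere. The difference of Ntn1 was 0.32 ± 0.14 (adjusted p = 0.224), or -0.06 relative to the chromosome 11 median, and 0.09 at its other probe. On day 7 the chromosome 11 median was 0.29 and the difference of Ntn1 was -0.16. The part of the chromosome-wide shift in the level of Ntn1 was not tested.

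**Figure D3:**
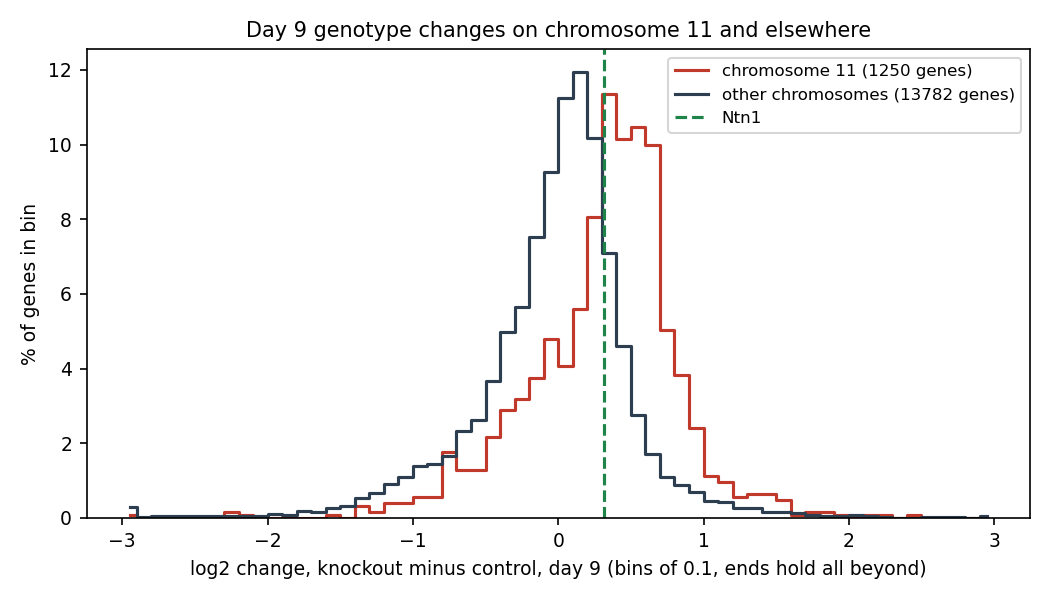
Share of genes, in percent, by log2 difference of knockout from control cells on day 9, in bins of 0.1, for 1250 genes on chromosome 11 and 13782 on other chromosomes. The dashed line marks Ntn1 at 0.32, left of the chromosome 11 median of 0.38 and right of the median of 0.04 elsewhere.

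On day 7 all 8 genes lay lower in knockout cells than in control cells, and none was called. The median difference was -0.60 over the 8 genes, beside -0.05 over all genes. limma called 0 of 8 where 0.215% of all genes were called, and 5 of 8 were lower at an unadjusted p under 0.05, beside 11.8% of all genes. The arrays of the genotypes did not overlap in any of the 8 genes, where 27.8% of all genes lay lower without overlap, but they overlapped at the other probes of Sulf1 and Ntn1. Slit1 differed by -0.88 ± 0.14 (adjusted p = 0.0743), Spon1 by -0.87 ± 0.31 (0.209), Shh by -0.86 ± 0.13 (0.0713), Foxa2 by -0.61 ± 0.13 (0.107) and Ferd3l by -0.59 ± 0.19 (0.185). The differences of Sulf1, Nkx2-9 and Ntn1 were -0.34, -0.26 and -0.16, and the other Sulf1 probe gave -0.15. Shh and Slit1 passed with probes kept only when well above background on all 8 arrays (adjusted p = 0.0444 and 0.0471) and with an intensity trend in the prior variance (0.0213 and 0.0338).

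Averaged over both days, with 4 arrays against 4, Shh and Slit1 were lower in knockout cells. They were 2 of the 8 genes, where 9.35% of all genes were called lower and 14.8% in either direction. Shh fell by 0.61 ± 0.09 on the log2 scale, or 1.52-fold (adjusted p = 0.0157), and Slit1 by 0.58 ± 0.10, or 1.50-fold (0.0186). Foxa2 (-0.34 ± 0.10, adjusted p = 0.0574), Sulf1 (-0.36 ± 0.11, 0.0683), Ferd3l (-0.44 ± 0.14, 0.0756) and Spon1 (-0.61 ± 0.22, 0.108) did not pass. Other settings moved this boundary, since Ferd3l passed with the replicate number as a block (adjusted p = 0.0235), Foxa2 with probes kept only when well above background on all 8 arrays (0.0459), and Foxa2, Ferd3l and Sulf1 with the intensity trend (0.0358, 0.0476 and 0.0395). Nkx2-9 and Ntn1 differed by 0.20 and 0.08, and the other probes of Ntn1 and Sulf1 by -0.03 and -0.25. Without knockout day 9 replicate 2 the adjusted p was 0.0622 for Shh and 0.0681 for Slit1, and 0 of the 8 were called. The call of Slit1 also ended without knockout day 7 replicate 1 (0.0558), knockout day 9 replicate 1 (0.0619) or control day 7 replicate 2 (0.0508), and both calls ended without a filter on dim probes (Shh 0.0697, Slit1 0.0764).

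**Figure D4:**
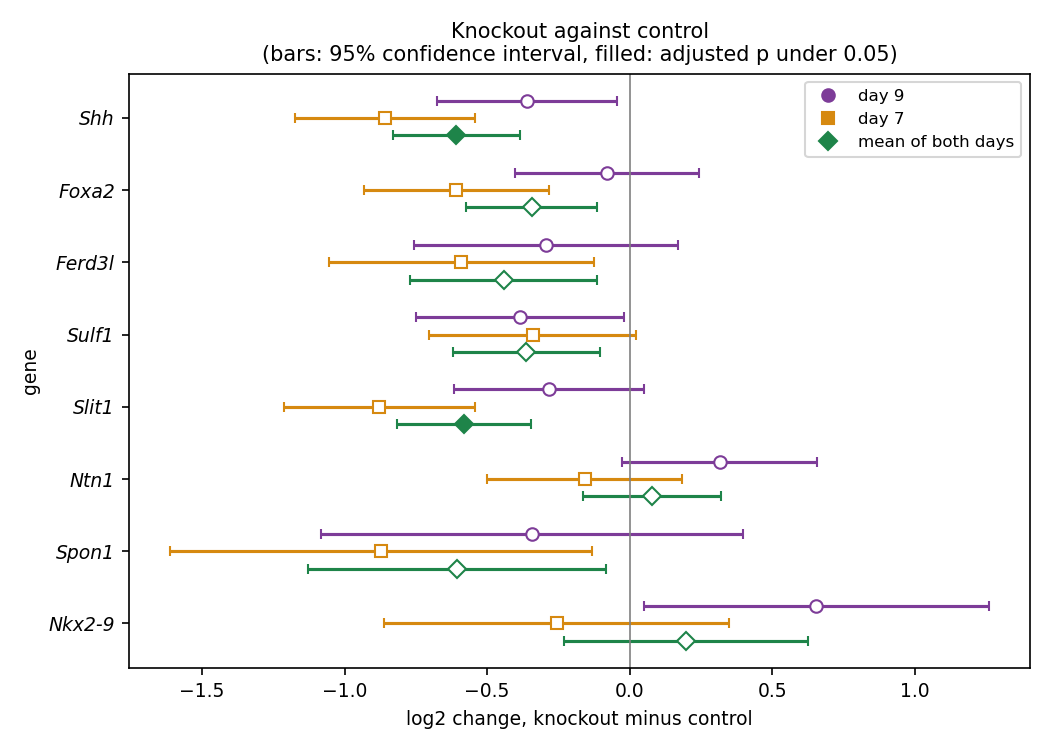
Log2 difference of knockout from control cells for the 8 tested genes on day 9, on day 7 and in the mean of both days, with 95% confidence intervals. Filled symbols passed an adjusted p of 0.05. On day 7 all 8 points lie below 0, and only the mean values of Shh and Slit1 are filled.

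The difference between the genotype effects was tested as an interaction term, the effect on day 9 minus that on day 7. None of the 8 genes was called, and 1 gene of 24633, a probe without a symbol, was called in all (0.00406%). At an unadjusted p under 0.05 there were 4 of 8 above 0, beside 2.68% of all genes. These were Nkx2-9 (0.91 ± 0.36), Slit1 (0.59 ± 0.20), Foxa2 (0.53 ± 0.19) and Shh (0.50 ± 0.19), with adjusted p of 0.823 to 0.826. The term was above 0 in 7 of 8 genes, with a median of 0.51 beside 0.00386 over all genes, and Sulf1 was at -0.04. The day 9 and day 7 effects draw on separate arrays.

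The 8 genes held different places between the groups. For Shh, Ferd3l and the brighter probe of Sulf1 the order from low to high was knockout day 7, control day 7, knockout day 9 and control day 9, each step without overlap. Foxa2 and Spon1 kept that order, but their day 9 groups overlapped. For Slit1 the overlap was between control day 7 and knockout day 9. Ntn1 had control day 9 below knockout day 9, and Nkx2-9 ran from control day 9 through knockout day 9 and knockout day 7 to control day 7. Over the 8 arrays, the 21 pairs of genes without Nkx2-9 had a Pearson r of 0.67 to 0.99 (median 0.93), and the 7 pairs with it -0.98 to -0.65. The arrays share 4 groups, so these values mostly repeat the group differences.

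Among the genes with a profile most like Shh over the 8 arrays, out of 15018 with a symbol, were Cckar, a cholecystokinin receptor (r = 0.998), Tmem35a (0.991), Tmem51 (0.990) and Slc6a9, a glycine transporter (0.988). An r above 0.9 was reached by 548 genes. Among those most like the median profile of the 8 genes were Tmem35a (0.996), Sirpa (0.995), Slc6a9 (0.994) and Cckar (0.993), with 591 genes above 0.9. No such search was made for Sim1.

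Of 9 other floor plate genes, all tested, 4 rose and 1 fell on day 9 in knockout cells, where 4.14% of all genes rose and 4.17% fell, and 3 rose in control cells, where 4.11% rose. The median change was 0.77 in knockout cells and 0.67 in control cells, beside -0.12 over all genes in both. Foxj1, the regulator of motile cilia, rose by 2.93 ± 0.33 in knockout cells (adjusted p = 0.00736) and by 2.37 ± 0.33 in control cells (0.0170). Foxa1, the paralog of Foxa2, rose by 2.29 ± 0.26 in knockout cells (0.00736) and by 1.98 ± 0.26 in control cells (0.0146). Sulf2, the paralog of Sulf1, rose by 0.98 ± 0.14 in knockout cells (0.0123) and by 0.72 ± 0.14 in control cells (0.0353), and Slit2 rose in knockout cells (0.77 ± 0.17, 0.0446). Slit3 fell by 0.93 ± 0.19 in knockout cells (0.0357). Between the genotypes none of the 9 was called on day 9, on day 7 or in the mean.

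Of 6 other p3 and V3 genes, all tested, none was called in any of the 6 comparisons. Neurog3, a proneural factor of p3 cells, lay at 3.66 and 2.66 in knockout cells on day 9, 0.73 and 2.86 in control cells on day 9, -0.01 and 0.82 in knockout cells on day 7 and -0.56 and 0.31 in control cells on day 7. The genotypes overlapped on both days, and the control day 9 arrays stood apart from each other. Its day 9 change in knockout cells was 2.76 ± 0.74 (adjusted p = 0.0721). Olig3, a progenitor factor, differed by 0.94 ± 0.59 between the genotypes in the mean of both days. Its probe was not well above background on 1 of the 4 control arrays. The medians over the 6 genes on day 9 against day 7 were 0.90 in knockout cells and 0.68 in control cells, beside -0.12 over all genes in both.

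**Figure D5:**
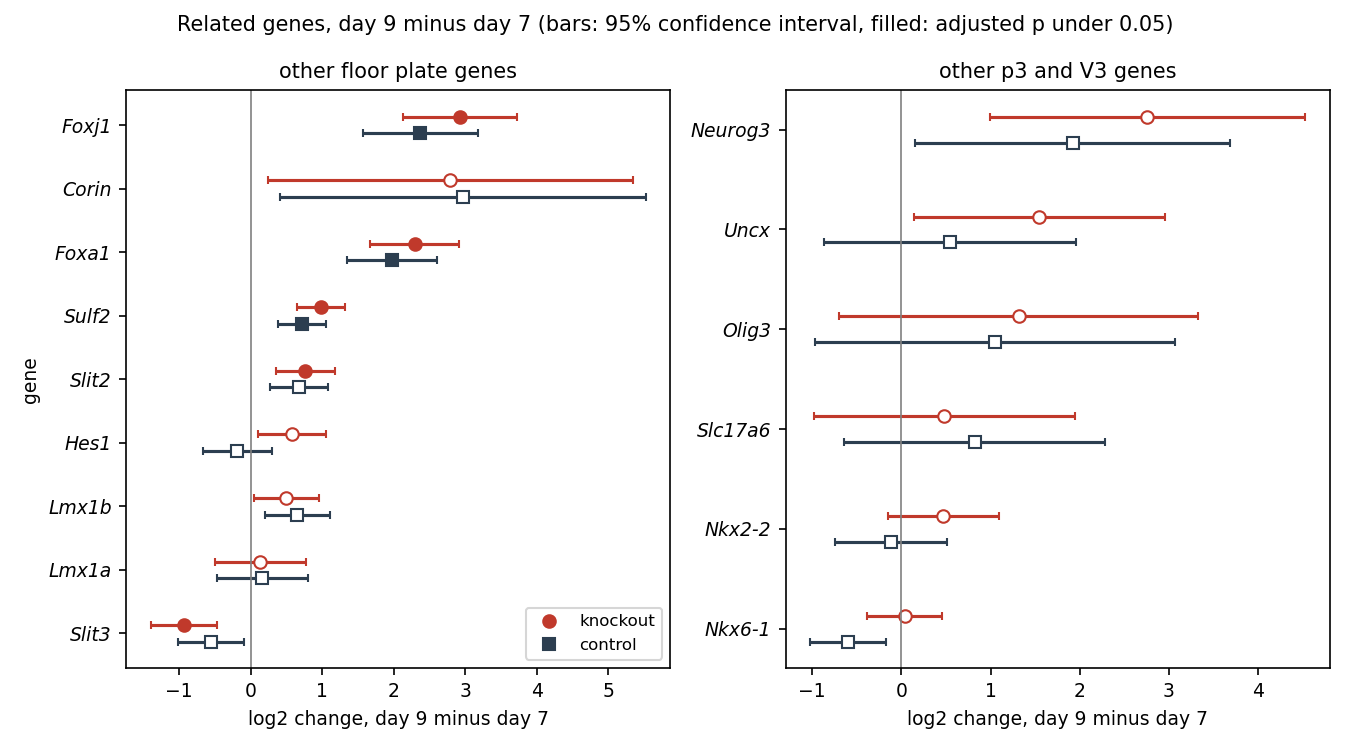
Log2 change on day 9 against day 7 in knockout and control cells for 9 other floor plate genes and 6 other p3 and V3 genes, with 95% confidence intervals. Filled symbols passed an adjusted p of 0.05. In the floor plate panel 5 are filled in knockout cells and 3 in control cells, and none in the p3 and V3 panel.

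Of 16 listed receptors of the secreted members 15 were tested, Unc5d being the exception. On day 9 against day 7, 2 rose and 1 fell in knockout cells, where 8.31% of all genes changed in either direction, and 2 fell and 0 rose in control cells, where 7.36% changed. The median changes were -0.18 in knockout cells and -0.17 in control cells, beside -0.12 over all genes in both. The Hedgehog co-receptors Cdon (1.13 ± 0.24, adjusted p = 0.0398) and Boc (0.79 ± 0.16, 0.0319) rose in knockout cells and the netrin receptor Unc5c fell (-1.56 ± 0.18, 0.00739). In control cells the netrin receptor Unc5a (-1.13 ± 0.16, 0.0183) and the Slit receptor Robo2 (-0.92 ± 0.17, 0.0324) fell. Unc5c was the one receptor called between the genotypes, lower in knockout cells on day 9 by 1.34 on the log2 scale (adjusted p = 0.0201), with a difference of -0.82 ± 0.13 in the mean of both days (0.0158). All genes were called in either direction at 5.46% on day 9 and 14.8% in the mean. Of the 15 receptors, 11 lay higher and 4 lower in knockout cells on day 9, with a median of 0.27 beside -0.02 over all genes. In the mean of both days 8 lay higher and 7 lower, with a median of 0.10 beside -0.04.

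Of 13 genes of Hedgehog release and response, 2 were called between the genotypes in the mean of both days, a share near the 14.8% of all genes called there. Of the 13 genes 8 lay higher and 5 lower, with a median of 0.15 beside -0.04 over all genes. The transcription factors Gli1 (1.14 ± 0.29, adjusted p = 0.0479), itself a Hedgehog target, and Gli2 (1.06 ± 0.27, 0.0474) were the called genes, both higher in knockout cells. Gli1 lay at 1.73 and 2.25 in knockout cells on day 9, 1.07 and 0.06 in control cells on day 9, 2.48 and 1.73 in knockout cells on day 7 and 1.47 and 1.04 in control cells on day 7. The Hedgehog carrier Scube3 (0.74 ± 0.15, 0.0405) and the glypican Gpc6 (0.66 ± 0.15, 0.0483) rose in control cells on day 9, where 4.11% of all genes rose, and none of the 13 was called over time in knockout cells. Of 13 listed paralogs of members 8 were tested, and Ntn5, Ntng2, Foxa3, Dhh and Nkx2-1 were not. Spon2, the paralog of Spon1, rose on day 9 by 0.96 ± 0.19 in knockout cells (0.0321) and by 1.63 ± 0.19 in control cells (0.0103). Nkx2-4 fell in control cells (-1.51 ± 0.30, 0.0361), and Ntng1, a membrane-bound netrin relative, was lower in knockout cells on day 9 (-1.18 ± 0.25, 0.0473) and in the mean (-1.13 ± 0.17, 0.0158).

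Markers of other cells moved beside these genes, and their part in the results was not tested. The counts below are of called genes. Between the genotypes, 5.46% of all genes were called on day 9 and 14.8% in the mean of both days. Over time 8.31% of all genes were called in knockout cells and 7.36% in control cells. Motor neuron progenitor markers were higher in knockout cells in 3 of 4 genes on day 9 (median 2.02) and in the mean of both days (median 1.65), and 3 of 4 fell on day 9 in each genotype. Their summed levels, in units of the 75th percentile, were 16.82 to 20.96 in knockout cells on day 9, 14.71 to 16.94 in control cells on day 9, 21.89 to 24.12 in knockout cells on day 7 and 23.45 to 29.97 in control cells on day 7. These sums mostly follow Nkx6-1, the brightest of the 4 and also listed with the p3 and V3 genes. In control cells on day 9 it lay at log2 levels of 3.85 and 4.05, and Olig2 at -3.21 and -2.77. The sums of the genotypes overlapped on both days. On day 7, 3 of the 4 genes lay higher and 1 lower in knockout cells, with a median difference of 1.06 and none called. Motor neuron markers fell on day 9 in 5 of 7 genes in knockout cells and in 3 of 7 in control cells, and in the mean of both days 4 were lower and 1 higher in knockout cells. Their summed levels were 10.45 to 12.52 in knockout cells on day 9, 14.45 to 21.42 in control cells on day 9, 37.89 to 43.0 in knockout cells on day 7 and 42.06 to 43.56 in control cells on day 7. In the mean of both days, pan-neuronal markers were lower in knockout cells in 6 of 7 genes. Their summed levels ran from 86.85 to 90.02 in knockout cells on day 9 and 142.4 to 176.3 in control cells on day 9, and from 146 to 151.8 in knockout cells on day 7 and 213.1 to 237.8 in control cells on day 7. V2 interneuron markers were lower in knockout cells in 2 of 3 genes in the mean, with summed levels of 4.548 to 7.0 in knockout cells on day 9, 8.154 to 8.596 in control cells on day 9, 3.476 to 3.833 in knockout cells on day 7 and 5.686 to 6.832 in control cells on day 7. In the mean of both days, 1 of 5 neural progenitor markers and 1 of 4 tested cycling-cell markers were called higher in knockout cells. With 14.8% of all genes called there, these counts are not read as a shift of either list. Of the 5 neural progenitor markers 3 lay higher and 2 lower, with a median of 0.01. The cycling-cell median was 0.17, beside -0.04 over all genes. Fibroblast and mesenchyme markers were higher in knockout cells in 6 of 8 genes in the mean, with 123.4 to 141.9 in knockout cells on day 9 and 69.57 to 79.06 in control cells on day 9, and with 51.75 to 70.81 in knockout cells on day 7 and 25.22 to 37.12 in control cells on day 7. Of 4 markers of the notochord, the other source of Shh in the embryo, T and Noto were not well above background on any of the 8 arrays. Nog and Chrd were well above background on all 8, and Nog rose on day 9 in knockout cells (1.31 ± 0.18, adjusted p = 0.0106). Of 9 endoderm markers, which share Foxa1 with the floor plate list, Apoa1 was not tested. Of the 8 tested, 7 or 8 were well above background on each array. Foxa1 was the one called on day 9 against day 7 in either genotype. In each genotype 6 of the 8 lay higher on day 9 and 2 lower. The median changes were 0.50 in knockout cells and 0.43 in control cells, beside -0.12 over all genes in both.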

How the data were processed

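RNA was measured in 8 samples on 1-colour arrays, grouped by the sample titles into 4 groups of 2. The submitters' processing notes name Agilent Feature Extraction 10.5.1. The deposited processed signal is the intensity of each spot, corrected for background within its own array and not scaled across arrays, per the file headers. A second file, deposited by the authors, holds log2 values for these arrays, with equal column distributions and a baseline of unknown origin, used as an alternative only. The 3671 control spots and 104 to 166 outlier spots per array were left out, no spot was saturated, and spots of a probe were averaged. The value was the log2 signal minus the array's 75th percentile. Of 55681 probes, 47.2% had a symbol through RefSeq accessions and a gene table on GRCm38.p6. A probe was kept if well above background on both arrays of a group, and the brightest kept probe stood for a gene.

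limma 3.58.1 (R 4.3.3) fitted 4 group means to 8 arrays with 4 residual and 2.53 prior degrees of freedom, two-sided. A change was called at an adjusted p under 0.05 over 24633 genes. Only the limma fit of the day 9 genotype comparison was tested on simulated data, with independent noise. Scaling, filtering and the other comparisons were not tested in this way. Arrays give no counting error, and their number limits the precision. The members and gene lists were chosen with earlier results of these data known. All members were named. Of each further list, genes called in a comparison were named, at most 6 by size, or else the 2 with the largest difference in the mean of both days. A few listed genes are not reported here. Same-numbered arrays deviated together at r of -0.25 for the day 9 groups to 0.46 for the day 7 groups. The numbers were not taken as pairs in the main fit. By the barcodes in the file headers, all 8 arrays lay on 1 slide, replicate 1 in row 1 and replicate 2 in row 2. The spread between replicates therefore cannot be told apart from slide row. Both sample titles of a group carry the same second number. Whether each group also kept the same position along the rows was not examined. Alternatives were another background correction, quantile or median scaling, the deposited table, other filters, the mean of a gene's probes, only the groups compared, an intensity trend, a replicate block and leaving out each array.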

Additional observations from a re-analysis of the deposited data

Results flagged for a closer look

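The signal of Sim1 on knockout day 9 replicate 1, 84.3 intensity units, is a value outside the tests. It stood above every control array, the highest of which was control day 9 replicate 2 at 22.0. These units are not scaled for the brightness of the arrays. As log2 levels scaled within each array, the values were -4.08 and -5.00. Knockout day 9 replicate 1 was the only array of 8 on which Sim1 was well above background. The other knockout day 9 array was at 22.3 units. Its scaled level of -5.26 lay below that of control day 9 replicate 2.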

How the results depend on the processing

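Of 856 recomputed changes of single members, 802 kept their direction and their side of the threshold, 37 no longer passed, 9 newly passed and 8 changed sign. The sign changed for Foxa2 on day 9 between genotypes (0.18 with normexp, 0.13 with median scaling, -0.17 to 0.01 without an array), for Spon1 there (-0.76 to 0.08 without an array) and for the interaction of Sulf1 (0.04 with median scaling, -0.16 to 0.07 without an array). The positive values arose without control day 9 replicate 2 in all 3 genes, and for Sulf1 also when either of the second arrays of the knockout, day 7 (0.03) or day 9 (0.07), was omitted, where leaving out control day 9 replicate 2 gave 0.06, and the cause was not tested. Members called on day 7 between genotypes were 2 instead of 0 with the strict filter or with the intensity trend, and 0 without any array. On day 9 they were 0 throughout. On day 9 against day 7 they were 6 to 8 in knockout cells without an array, and in control cells 3 instead of 7 with no filter or only the groups compared, and 0 to 7 without an array. In the mean of both days they were 0 instead of 2 with no filter, 3 with the strict filter or the replicate block, 5 with the trend and 0 to 2 without an array. In the interaction they were 0 throughout. Normexp, quantile normalization, median scaling and the deposited table kept every member count within 1.5 times, though with normexp Foxa2 was no longer called in control cells.

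Genes called on day 7 between genotypes were 53, against 21 with normexp (on the median signal, since the mean signal was not used here), 0 with no filter or only the groups compared, 184 with the strict filter, 323 with the trend and 0 to 125 without an array. On day 9 they were 1346, against 322 with normexp, 1 with no filter, 52 with only the groups compared and 7 to 804 without an array. On day 9 against day 7 they were 2047 in knockout cells, against 871 with normexp, 480 with no filter and 438 to 1996 without an array, and 1814 in control cells, against 682, 75 and 182 with only the groups compared, and 8 to 1306 without an array. In the mean they were 3653, against 1678 with normexp, 220 with no filter and 450 to 2716 without an array. In the interaction the 1 call became 0 with normexp, quantile, median scaling, the deposited table, no filter, the strict filter or the trend, and 0 to 1 without an array. Fewer arrays or more dim probes enter several of these fits by construction.

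With the replicate number as a block, genes called were 102 on day 7, 2031 on day 9 and 0 in the interaction, and Ferd3l passed in the mean of both days (adjusted p = 0.0235); it changed no other member's call. With the numbers of knockout day 9 crossed, chosen after seeing that same-numbered day 9 arrays correlated at -0.25, 2595 genes and 0 members were called on day 9. The share of calls that were higher moved with median scaling to 65.1% on day 9 (main 27.5%), 58.9% on day 7 (main 45.3%, quantile 55.6%) and 71.5% in the mean (main 37.0%, quantile 48.1%). For day 9 against day 7 it moved to 66.0% in knockout cells (main 49.9%) and 67.8% in control cells (main 55.8%, normexp 68.9%). Median scaling also shifted the all-gene median of the genotype difference to 0.19 on day 9 (main -0.02), 0.08 on day 7 (main -0.05) and 0.13 in the mean (main -0.04), and that of the time change in knockout cells to 0.04 (main -0.12).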
